A study of Mus musculus with 44 samples.

Results

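The 32 genes described here repair broken or crosslinked DNA, or signal that it is damaged. They were taken as a list of symbols and comprise 14 genes of homologous recombination, 11 Fanconi genes, 4 checkpoint kinases and 3 other repair genes, 2 of mismatch repair and Parp1. All 32 had a row in both bulk RNA tables, which hold 16078 genes for tumors and 15926 genes for cultured lines, and in both single-cell tables. All 32 passed the filter on low values in both bulk tables.

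The series measured RNA, open chromatin and single cells of mouse medulloblastoma, a tumor of the cerebellum. In the GTML model a tetracycline-controlled MYCN transgene is driven from the promoter of the glial glutamate transporter gene Glt1 (Slc1a2), so that the transgene is on in GTML tumors and is turned off by doxycycline (DOX). GTS is a related model with expression driven from Sox9. Bulk RNA came from 6 GTS tumors and 8 GTML tumors, and from the lines preGTS1 and GTML3, each grown with DOX or with the solvent DMSO (3 samples each). ATAC-seq, which counts transposase insertions in open chromatin, was done on preGTS1 and GTML3 under DOX and DMSO, on the sources labelled GTS1 and GTS2, and on fractions labelled GFP and nonGFP, with 2 libraries each. Droplet single-cell RNA came from 1 library labelled fGTS2 and 1 labelled GTML_SOX9-GFP. The labels do not say whether the 3 samples of a line were separate cultures, so a p-value reflects how far these samples scatter, which may be technical. Strain and age of the animals were not used here.

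Homologous recombination copies the intact sister chromatid to mend a double-strand break, and is therefore active mainly while a cell replicates its DNA and afterwards. The Fanconi proteins recognise a crosslink between DNA strands at a stalled replication fork: a core complex (Fanca, Fancb, Fancc, Fance, Fancf, Fancg, Fancl, Fancm) attaches ubiquitin to the Fancd2 and Fanci pair, and recombination proteins finish the repair. Atm and Atr are the kinases that sense breaks and stalled forks, and Chek2 and Chek1 are their effector kinases. Inherited loss of Brca2 or Palb2 causes Fanconi anemia and can predispose children to medulloblastoma. MYC family proteins drive cell division, and many genes of DNA replication and repair are transcribed under E2F factors as cells enter S phase.

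Promoters of 6 members are printed to show what the windows searched for motifs look like, for genes whose RNA moved very differently in the results below. Each is the 220 bases before the annotated start, on the gene's strand, from RefSeq on GRCm38.p6. Capitals mark an E2F word (TTTCCCGC, TTTCGCGC, TTTGCCGC or TTTGGCGC, on either strand) or the CCAAT box (CCAAT, on either strand). Chek2, a checkpoint kinase, lies at chr5:110839763-110839982 on the plus strand. Bard1, the partner of Brca1, lies at chr1:71102973-71103192 on the minus strand. Brca2, a core recombination gene, lies at chr5:150522401-150522620 on the plus strand. Fancg, of the Fanconi core, lies at chr4:43010302-43010521 on the minus strand. Fance, of the same core, lies at chr17:28313310-28313529 on the plus strand. Brca1, a ubiquitin ligase of recombination, lies at chr11:101551956-101552175 on the minus strand.
Chek2: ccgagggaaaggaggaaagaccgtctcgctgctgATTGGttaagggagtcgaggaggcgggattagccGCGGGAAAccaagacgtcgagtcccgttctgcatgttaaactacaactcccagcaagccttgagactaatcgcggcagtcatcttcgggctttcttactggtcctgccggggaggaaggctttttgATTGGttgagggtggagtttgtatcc
Bard1: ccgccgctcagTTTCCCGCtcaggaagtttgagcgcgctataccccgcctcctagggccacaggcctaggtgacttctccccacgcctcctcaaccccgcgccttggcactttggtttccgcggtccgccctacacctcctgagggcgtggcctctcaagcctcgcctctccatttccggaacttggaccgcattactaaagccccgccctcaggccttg
Brca2: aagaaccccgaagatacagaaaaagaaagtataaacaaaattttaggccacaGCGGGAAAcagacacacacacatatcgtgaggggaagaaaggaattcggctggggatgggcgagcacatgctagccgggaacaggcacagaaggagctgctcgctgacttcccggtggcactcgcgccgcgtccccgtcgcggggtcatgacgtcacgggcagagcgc
Fancg: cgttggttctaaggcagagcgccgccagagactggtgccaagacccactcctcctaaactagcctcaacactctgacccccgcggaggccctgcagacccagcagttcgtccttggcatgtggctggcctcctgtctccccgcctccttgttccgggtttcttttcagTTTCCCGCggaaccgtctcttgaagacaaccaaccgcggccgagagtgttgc
Fance: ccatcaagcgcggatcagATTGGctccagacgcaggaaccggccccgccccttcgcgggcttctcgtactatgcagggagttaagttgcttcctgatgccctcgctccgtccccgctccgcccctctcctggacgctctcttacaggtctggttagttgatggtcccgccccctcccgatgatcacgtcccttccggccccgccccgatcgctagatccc
Brca1: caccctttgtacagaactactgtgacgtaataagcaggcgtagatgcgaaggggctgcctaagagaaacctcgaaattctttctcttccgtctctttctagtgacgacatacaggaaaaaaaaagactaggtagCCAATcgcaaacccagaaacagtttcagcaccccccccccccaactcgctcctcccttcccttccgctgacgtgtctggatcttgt

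The tables of promoters matched 28 of the 32 genes. Rbbp8, Fancd2, Rad54b and Xrcc2 were not matched. An E2F word stood within 250 bases before to 50 bases after an annotated start in 6 of the 28, which were Bard1, Brca2, Rad51c, Fancg, Chek2 and Msh6. The same words stood in 2.26% of all 32851 promoter windows and in windows of 2.6% of genes. A CCAAT box stood in 18 of the 28, against 37.4% of windows and 41.1% of genes. The cell cycle homology word TTTGAA stood in 2 of the 28 (Bard1 and Rad51b), against 17.9% of windows and 20.2% of genes. The E-box CACGTG, a word bound by MYC family proteins, stood in 1 (Parp1), against 7.15% of windows and 8.09% of genes. The words do not overlap one another, and a match describes letters in a window only.

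The treated-line RNA libraries held 10.861 to 24.672 M reads. Mycn, which checks the switch, averaged 55.5 ± 12.6 CPM (counts per 1 M reads) in preGTS1 under DOX, against 1605 ± 280 under DMSO, and 30.7 ± 2.87 CPM in GTML3 under DOX, against 371 ± 36.6 under DMSO (SD, n = 3 each). Its log2 fold change was -4.86 ± 0.15 in preGTS1 and -3.59 ± 0.15 in GTML3 (SE, limma with Benjamini-Hochberg adjustment, adjusted p = 2.22e-12 and 6.72e-11). A value per gene symbol does not separate reads of the transgene from those of the mouse gene. Myc went the other way, with means of 18.8 CPM in preGTS1 under DOX and 1.32 under DMSO. In GTML3 it stayed under 1 CPM, with 0.61 under DOX and 0.0166 under DMSO. Markers of medulloblastoma summed to 995 to 1089 CPM in preGTS1 under DOX and 461 to 487 under DMSO, and to 2279 to 2282 CPM in GTML3 under DOX and 1248 to 1296 under DMSO. Of the 17 markers, Nrl, Barhl1, Atoh1 and Eomes had no row in the line table used here. In GTML3 under DOX, replicate 1 differed from replicates 2 and 3 by a chi-square per degree of freedom of 60.39 and 85.09, against 4.67 between those 2 replicates. Leaving it out ended no member's call in the DOX comparison of GTML3.

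DOX lowered nearly all of these genes in both lines. In preGTS1, 30 of 32 fell and none rose, and in GTML3, 30 fell and 1, Fance, rose. The threshold throughout was an adjusted p of 0.05 by limma over all genes tested. Among all 15926 genes, 33.7% fell and 34.5% rose in preGTS1, and 31.4% fell and 34.5% rose in GTML3. The median log2 fold change of the 32 was -2.26 in preGTS1 and -1.76 in GTML3, while the median over all genes was 0.041 and 0.048. In bulk samples, fewer cells that hold a transcript and less of it in each cell cannot be told apart.

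**Figure D1:**
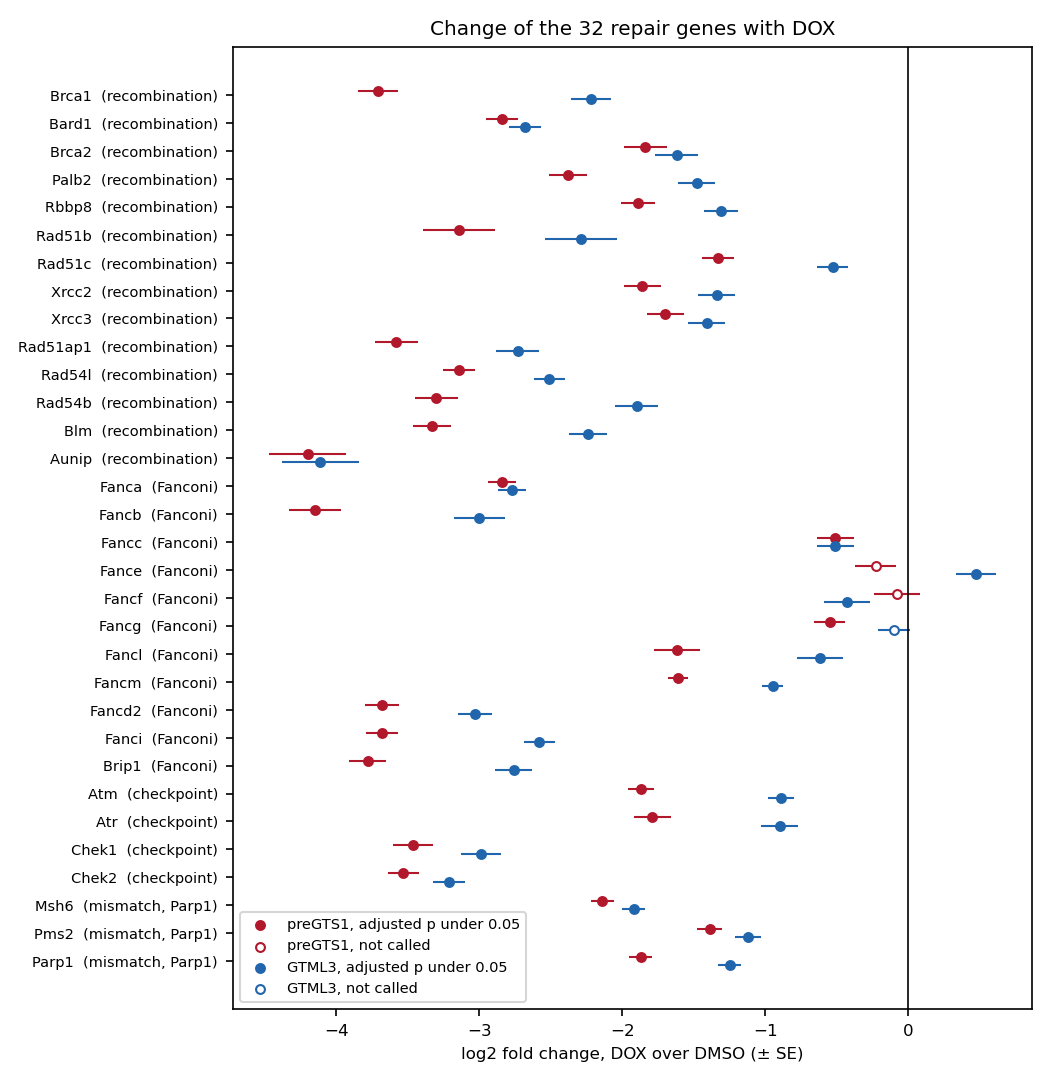
Log2 fold change of RNA, DOX over DMSO, for the 32 genes grouped by role, with standard errors from limma (n = 3 samples per condition), preGTS1 in red and GTML3 in blue. Values run from -4.20 to -0.08 in preGTS1 and from -4.11 to 0.47 in GTML3, and Fance alone lies right of 0.

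All 14 recombination genes fell in both lines, with median log2 fold changes of -2.99 in preGTS1 and -2.06 in GTML3. Brca1, a ubiquitin ligase that commits breaks to recombination, had 16.9, 11.6 and 17.8 CPM in preGTS1 under DOX, against 206, 219 and 173 CPM under DMSO. In GTML3 it had 27.8, 31.5 and 30.2 CPM under DOX, against 127, 141 and 150 CPM under DMSO. No DOX sample reached a DMSO sample in either line. The log2 fold change of Brca1 was -3.71 ± 0.14 in preGTS1 and -2.22 ± 0.14 in GTML3 (SE, limma, Benjamini-Hochberg adjusted p = 5.48e-12 and 2.28e-09).

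Aunip, known in human cells as a factor that binds damaged DNA ends and favours resection, fell furthest of all members. It had 1.54, 1.17 and 1.45 CPM in preGTS1 under DOX, against 29.7, 27.5 and 20.5 CPM under DMSO. GTML3 samples had 0.608, 1.47 and 1.02 CPM under DOX, against 15.8, 18.9 and 16.5 CPM under DMSO. The DOX level left 6.04% of the DMSO level in GTML3, and the log2 fold change was -4.20 ± 0.27 in preGTS1 and -4.11 ± 0.27 in GTML3 (SE, limma, adjusted p = 1.07e-09 and 1.79e-09).

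Brca2, which acts on resected DNA ends in recombination, fell less and from unequal levels. It had 13.1, 12.1 and 16.8 CPM in preGTS1 under DOX, against 57.2, 53.2 and 40.6 CPM under DMSO. GTML3 samples had 50.5, 36.8 and 41.7 CPM under DOX, against 132, 132 and 129 CPM under DMSO. The groups did not overlap within a line, but GTML3 under DOX kept about as much Brca2 RNA as preGTS1 had under DMSO. Log2 fold changes were -1.84 ± 0.15 in preGTS1 and -1.62 ± 0.15 in GTML3.

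The other recombination genes changed by unequal amounts. Rad51ap1, a helper of strand pairing, changed by -3.58 in preGTS1 and -2.73 in GTML3, and the translocases Rad54l (-3.14 and -2.51) and Rad54b (-3.30 and -1.90) followed the same order of lines. Blm, a helicase that dissolves joint molecules, changed by -3.33 and -2.24, and Bard1 by -2.84 and -2.68. Rad51b, Xrcc2, Xrcc3 and Rad51c, which form related complexes in recombination, spread widely: Rad51b changed by -3.14 in preGTS1 and -2.29 in GTML3, Xrcc2 by -1.86 and -1.34, Xrcc3 by -1.70 and -1.41, and Rad51c by -1.33 and -0.53. Palb2, the bridge between Brca1 and Brca2, changed by -2.38 and -1.48, and Rbbp8 (CtIP), which starts resection, by -1.89 and -1.31. Rad51b had few reads, with 1.27, 1.55 and 0.969 CPM in preGTS1 under DOX and 13.7, 12.4 and 7.87 CPM under DMSO, and 1.3, 1.54 and 1.45 CPM in GTML3 under DOX and 5.83, 8.01 and 7.52 CPM under DMSO.

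**Figure D2:**
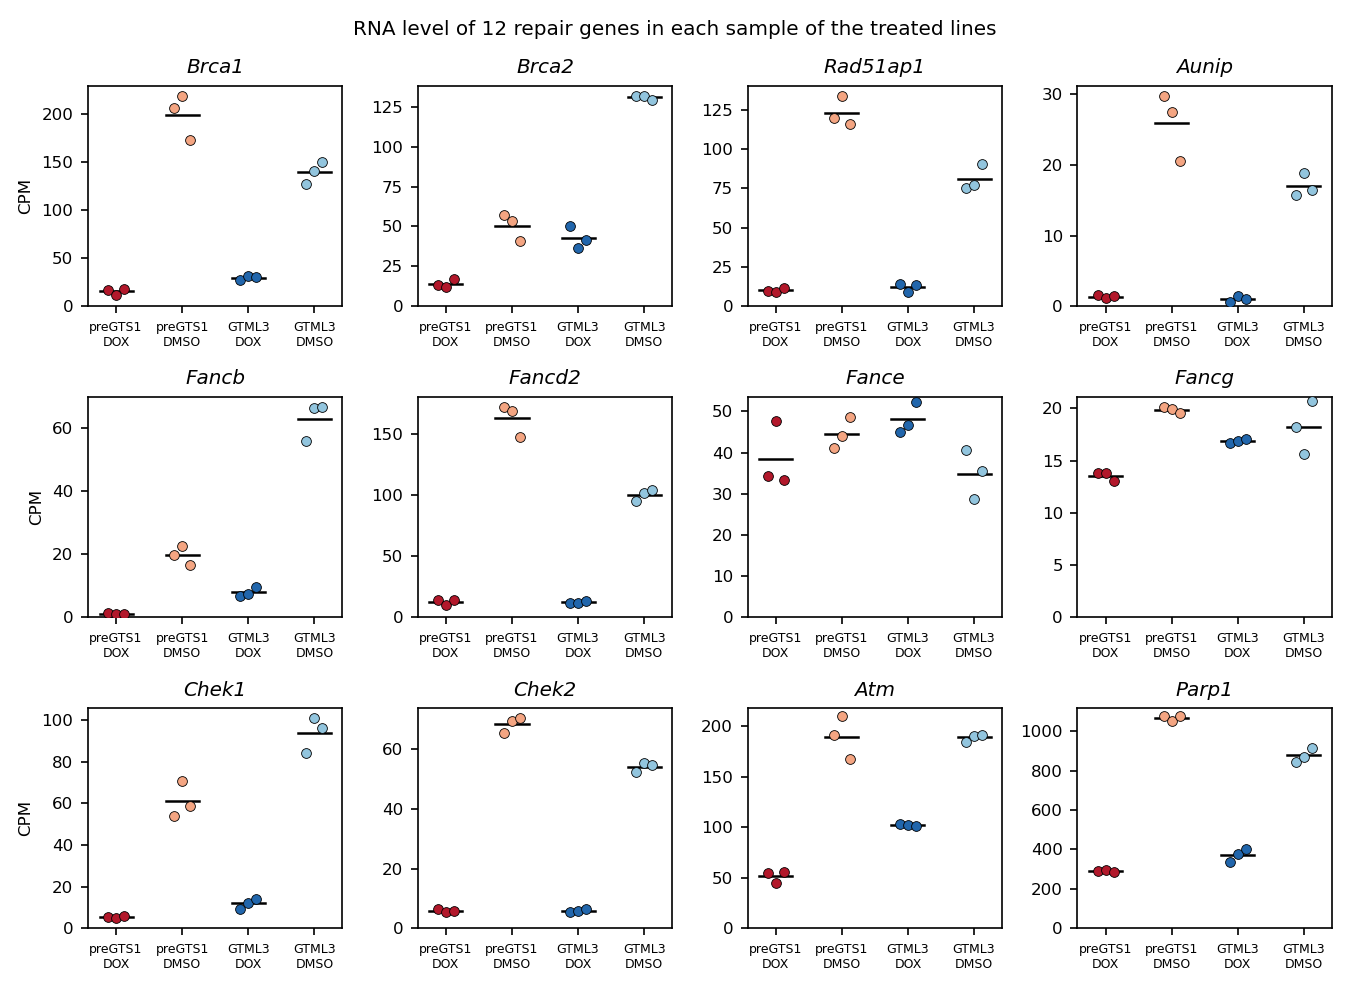
RNA level in CPM (vertical axis from 0) of 12 of the genes in every sample of the treated lines, with preGTS1 left of GTML3 and DOX left of DMSO; bars are means of 3 samples. The Brca1 samples lie at 11.6 to 17.8 CPM in preGTS1 under DOX and 173 to 219 CPM under DMSO, whereas the Fance samples of preGTS1 overlap.

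The 11 Fanconi genes ranged from strong to weak responders. Of them, 9 fell in preGTS1 and 9 fell in GTML3, with median log2 fold changes of -1.62 and -0.95. Fancd2, the protein that the core complex marks with ubiquitin, had 14.1, 10.3 and 13.9 CPM in preGTS1 under DOX, against 172, 169 and 147 CPM under DMSO. The GTML3 levels were 11.4, 11.9 and 13.7 CPM under DOX, against 95.1, 102 and 104 CPM under DMSO. The lines differed under DMSO, and their DOX values overlapped. Log2 fold changes were -3.68 ± 0.12 in preGTS1 and -3.03 ± 0.12 in GTML3 (SE, limma, adjusted p = 6.39e-13 and 7.04e-12). Its partner Fanci changed by -3.68 and -2.58, and Brip1, a helicase that binds Brca1, by -3.78 and -2.76.

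The core complex subunits did not move alike. Fancb, an X-linked subunit, had 1.32, 1.05 and 0.909 CPM in preGTS1 under DOX, against 19.7, 22.6 and 16.6 CPM under DMSO. The GTML3 levels were 6.86, 7.26 and 9.64 CPM under DOX, against 55.7, 66.3 and 66.5 CPM under DMSO. Each of the 4 groups was separate from the others, and preGTS1 was the lower line under both conditions. Log2 fold changes of Fancb were -4.15 ± 0.18 in preGTS1 and -3.00 ± 0.18 in GTML3 (SE, limma, adjusted p = 1.15e-11 and 7.07e-10). Fanca, the largest call among the other subunits, changed by -2.84 and -2.77, Fancm, the translocase that anchors the core on DNA, by -1.61 and -0.95, and Fancl, its ubiquitin ligase, by -1.62 and -0.62. Fancc changed by -0.51 in both lines (adjusted p = 0.00221 in preGTS1 and 0.00241 in GTML3).

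Fance, Fancf and Fancg were the exceptions. Fance, the subunit that binds Fancd2, had 34.4, 47.7 and 33.4 CPM in preGTS1 under DOX, against 41.1, 44.1 and 48.6 CPM under DMSO, and these groups overlapped. In GTML3 it had 45.0, 46.8 and 52.3 CPM under DOX, against 40.5, 28.8 and 35.4 CPM under DMSO, with every DOX sample above every DMSO sample. Its log2 fold change was -0.23 ± 0.14 in preGTS1 (limma, adjusted p = 0.166) and 0.47 ± 0.14 in GTML3 (adjusted p = 0.00822). The call in GTML3 rested on DMSO replicate 2: without it the value was 0.34 (adjusted p = 0.0556). In preGTS1 the value without DOX replicate 2 was -0.39 (adjusted p = 0.0131).

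Fancf, an adaptor within the core, had 9.21, 13.2 and 11.6 CPM in preGTS1 under DOX, against 11.1, 12.8 and 11.7 CPM under DMSO, a log2 fold change of -0.08 ± 0.16 (limma, adjusted p = 0.673). In GTML3 it had 6.51, 5.48 and 6.75 CPM under DOX, against 8.95, 7.57 and 8.67 CPM under DMSO, a change of -0.43 ± 0.16 (adjusted p = 0.0255). That call was lost without DMSO replicate 1 (-0.38, adjusted p = 0.0823), without DMSO replicate 3 (-0.40, adjusted p = 0.0677) and without DOX replicate 2 (-0.34, adjusted p = 0.102). Fancg, also of the core, had 13.8, 13.8 and 13.0 CPM in preGTS1 under DOX, against 20.1, 19.9 and 19.6 CPM under DMSO, a change of -0.55 ± 0.11 (adjusted p = 0.000428). In GTML3 its values were 16.7, 16.9 and 17.1 CPM under DOX and 18.2, 15.6 and 20.7 CPM under DMSO, which overlapped (-0.10 ± 0.11, adjusted p = 0.476). Fancg carries an E2F word at -52 to -45 from its start, as printed above, and Chek2 one at -152 to -145.

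All 4 checkpoint kinases fell in both lines. Chek1, the effector of Atr at stalled forks, had 5.52, 5.19 and 5.75 CPM in preGTS1 under DOX, against 53.8, 70.8 and 58.5 CPM under DMSO. GTML3 samples had 9.37, 12.3 and 14.1 CPM under DOX, against 84.2, 101 and 96.2 CPM under DMSO. Chek2, the effector of Atm, had 6.56, 5.56 and 5.63 CPM in preGTS1 under DOX, against 65.3, 69.4 and 70.5 CPM under DMSO, and 5.38, 5.87 and 6.38 CPM in GTML3 under DOX, against 52.2, 55.5 and 54.8 CPM under DMSO. DOX and DMSO samples were far apart for both effectors. Log2 fold changes were -3.46 ± 0.14 and -2.99 ± 0.14 for Chek1 and -3.53 ± 0.11 and -3.21 ± 0.11 for Chek2, in preGTS1 and GTML3 (SE, limma, largest adjusted p = 5.64e-11).

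The sensor kinases had smaller changes. Atm, which responds to double-strand breaks, had 55.1, 44.9 and 55.5 CPM in preGTS1 under DOX, against 192, 210 and 168 CPM under DMSO. In GTML3 it had 103, 102 and 101 CPM under DOX, against 185, 191 and 192 CPM under DMSO, so that 54.0% remained. The DMSO samples of the lines overlapped and the DOX samples did not. Atm changed by -1.87 ± 0.09 in preGTS1 and -0.89 ± 0.09 in GTML3, and Atr, which responds to single-stranded DNA at forks, by -1.79 ± 0.13 and -0.90 ± 0.13.

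Msh6, Pms2 and Parp1 also fell in both lines. Msh6, which recognises mismatches, had 67.1, 65.2 and 70.9 CPM in preGTS1 under DOX, against 299, 308 and 289 CPM under DMSO. The GTML3 levels were 108, 121 and 133 CPM under DOX, against 428, 479 and 462 CPM under DMSO. The groups were separate in each line, with changes of -2.14 and -1.92. Pms2, the nuclease subunit of mismatch repair, changed by -1.39 and -1.12. Parp1, which marks strand breaks with poly(ADP-ribose), had 293, 295 and 288 CPM in preGTS1 under DOX and 1078, 1051 and 1077 CPM under DMSO, and changed by -1.87 ± 0.08 in preGTS1 and -1.25 ± 0.08 in GTML3.

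The log2 response to DOX was more negative in preGTS1 than in GTML3 for 20 members and more positive for none, by the test of the difference itself (limma interaction term, adjusted p under 0.05 over all genes). The 20 include Fance, whose DOX change was called in GTML3 (a rise) and not in preGTS1, and Fancg, whose DOX change was called in preGTS1 (a fall) and not in GTML3. Among all genes, 25.1% had a more negative response in preGTS1 and 17.1% a more positive one. The median difference in response over the 32 was -0.64, and over all genes -0.098. Brca1 differed most (-1.49 ± 0.20, adjusted p = 3.65e-05), followed by Rad54b (-1.39 ± 0.21, adjusted p = 7.69e-05). Fancb differed by -1.16 ± 0.25 (adjusted p = 0.00187), Fanci and Blm each by -1.10, Brip1 by -1.02, Fancl by -1.0, Atm by -0.98 and Atr by -0.89.

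For 12 members no difference in response was called, and their estimates lay between -0.84 for Rad51b (SE 0.36, adjusted p = 0.0697) and 0.35 for Fancf (SE 0.22, adjusted p = 0.221). Aunip, the gene with the largest falls, differed by -0.08 ± 0.38, an error wide enough to hide a difference of the size seen for Xrcc2 (-0.52). The values of Xrcc2 and Fancg (-0.46) passed the threshold narrowly: Xrcc2 lost it without any 1 sample other than replicate 3 of preGTS1 under DOX or DMSO (adjusted p = 0.0574 to 0.1). Fancg lost it (adjusted p = 0.0511 to 0.0843) without DMSO replicate 1 or 2 of either line, DOX replicate 2 or 3 of GTML3, or DOX replicate 3 of preGTS1. Without DOX replicate 1 of GTML3, Chek1 (-0.64), Chek2 (-0.39), Msh6 (-0.29) and Pms2 (-0.35) passed as well. Rad51b passed without DMSO replicate 3 (-1.09) or DOX replicate 2 (-1.0) of preGTS1, and Chek2 without DOX replicate 1 of preGTS1 (-0.40). The value of Fancb was -0.45 (adjusted p = 0.0869) on a scale of log2(CPM + 1), where 1 CPM is added before taking logs, since its level in preGTS1 under DOX is near 1 CPM. The line with the larger fall of Mycn RNA was also the line with the more negative responses here (difference in Mycn response -1.27 ± 0.21, adjusted p = 0.000324), and its part was not tested.

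The lines also differed before treatment. Under DMSO, 16 members were higher in preGTS1 than in GTML3 and 5 were lower, against 38.5% and 27.9% of all genes. The genes lower in preGTS1 were Fancb (-1.68 ± 0.18, adjusted p = 6.41e-07), Brca2 (-1.39 ± 0.15, adjusted p = 6.71e-07), Fancc (-0.66 ± 0.13), Chek1 (-0.63 ± 0.14) and Msh6 (-0.61 ± 0.08), all by limma. The largest positive differences were Rad51c (0.90 ± 0.11), Fancd2 (0.69 ± 0.12), Rad51b (0.64 ± 0.25) and Rad51ap1 (0.61 ± 0.15). The call of Rad51b was lost with centring (0.53, adjusted p = 0.0781) and without DMSO replicate 1 of either line, replicate 3 of GTML3 or replicate 2 of preGTS1 (0.48 to 0.69). The median over all genes was 0.126 in this comparison, and with each sample centred on its own median only 9 members were higher and 7 lower, so the count of higher genes depends on the scaling, whereas all 5 lower calls lie well beyond that shift. Under DOX, 2 members were higher in preGTS1 (Fancf 0.85 ± 0.16 and Fanca 0.25 ± 0.10) and 21 were lower, against 36.9% and 35% of all genes. Fancb was lowest at -2.84 ± 0.18, then Brca2 (-1.62), Rad54b (-1.40), Palb2 (-1.14) and Chek1 (-1.10). The Fanca call ended with each sample centred on its median (0.16, adjusted p = 0.178) and without DOX replicate 1 or 3 of GTML3 or 1 or 2 of preGTS1 (0.16 to 0.26). These comparisons use the same samples as the DOX comparisons above and are given as each line's own level.

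Genes of the same pathways outside the 32 mostly fell as well. Over all genes, 33.7% fell and 34.5% rose in preGTS1, and 31.4% fell and 34.5% rose in GTML3. Of 36 other recombination genes, 28 fell and 2 rose in preGTS1, and 25 fell and 5 rose in GTML3. Exo1, a resection nuclease, changed by -3.82 ± 0.09 and -3.61 ± 0.09, Polq, the polymerase of end joining by short homologies, by -3.55 in preGTS1, and Eme1, a nuclease subunit that resolves joint molecules, by -3.43 in preGTS1. Of 14 other Fanconi genes tested, 11 fell and 1 rose in preGTS1, and 8 fell and 4 rose in GTML3. Ube2t, the ubiquitin conjugating enzyme of the core complex, changed by -2.88 and -2.44, and Usp1, which removes that ubiquitin, by -2.95 and -2.57. Of 25 other checkpoint genes, 20 fell in each line, with 1 rising in preGTS1 and 2 in GTML3. Clspn, the adaptor for Chek1, changed by -3.61 and -2.84, and Cdc25c, a phosphatase that releases the mitotic kinase, by -3.71 and -2.78.

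Lists of other repair pathways gave the following counts. They stand against 33.7% of all genes falling in preGTS1 and 31.4% in GTML3, and 34.5% rising in each line. Of 13 end joining genes tested, 6 fell and none rose in preGTS1, and 5 fell and 2 rose in GTML3, with medians of -0.36 and -0.02. Xrcc6, the Ku70 end binder, changed by -2.01 and -1.33. Of 21 nucleotide excision genes, 16 fell and 2 rose in preGTS1, and 10 fell and 7 rose in GTML3, with medians of -0.59 and -0.15. Of 9 translesion genes, 5 fell and 1 rose in preGTS1, and 2 fell and 3 rose in GTML3. Polh, a polymerase that copies ultraviolet damage, changed by -1.93 and -1.33, while Rev3l, the catalytic subunit of polymerase zeta, rose by 0.90 ± 0.12 in GTML3. Of 21 base excision genes, 16 fell and 2 rose in preGTS1, and 13 fell and 5 rose in GTML3. Ung, which removes uracil, changed by -3.72 and -3.29. Of 5 other mismatch repair genes, 5 fell in preGTS1 and 4 in GTML3. Some of these genes, Exo1, Clspn, Usp1 and Ung among them, also belong to the list of S-phase genes used next. Differences between lists were not tested.

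Cell cycle genes fell at the same time, and the shares over all genes given above hold for these lists too. All 41 genes of an S-phase list that holds no member fell in both lines, with medians of -3.06 in preGTS1 and -2.76 in GTML3. Their summed level was 1360 to 1470 CPM in preGTS1 under DOX and 9291 to 9576 CPM under DMSO, and 1538 to 1777 CPM in GTML3 under DOX and 8829 to 9289 CPM under DMSO. Of 54 mitotic genes, 54 fell in preGTS1 and 51 in GTML3. Markers of neurons were higher under DOX: 7 of 7 tested rose in preGTS1 and 6 of 7 in GTML3, and their sum was 1333 to 1482 CPM in preGTS1 under DOX and 347 to 373 CPM under DMSO, and 1490 to 1539 CPM in GTML3 under DOX and 812 to 817 CPM under DMSO. Their part in the falls of the repair genes was not tested.

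Single-cell counts show in which cells these genes were read out, in libraries whose labels name no treatment. Cells were sorted into 3 classes by a score over the S-phase and mitotic (G2M) lists, neither of which holds a member: in fGTS2 837 cells scored for S, 1672 for G2M and 1989 for neither, and in GTML_SOX9-GFP 1039, 2320 and 1286. These classes are ranges of a score, and 660 and 770 cells had their larger score within 0.1 of the boundary. UMIs (tags of captured molecules) were summed over the cells of a class and are given as CPM of the class's UMIs. The median number of UMIs per cell was 24111, 25519.5 and 18239 for S, G2M and neither in fGTS2, and 19729, 20970.5 and 15598.5 in GTML_SOX9-GFP. With 1 library each there is no test.

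Most members were concentrated in cells that scored for S phase. In fGTS2, 26 of 32 were at least 2 times higher in S cells than in cells of neither class, against 6.59% of genes, with a median ratio of 5.97. None was lower by 2 times or more, against 1.8% of genes. In GTML_SOX9-GFP, 25 of 32 were, against 4.4% of genes, with a median ratio of 4.35, and none was lower by 2 times, against 2.43%. Rad51ap1 had 80.38 CPM in S cells, 44.25 in G2M cells and 2.06 in cells of neither class in fGTS2, and 63.27, 46.55 and 5.48 in GTML_SOX9-GFP. Brca1 had 57.38, 26.83 and 1.78 in fGTS2, and 69.13, 39.59 and 4.10 in GTML_SOX9-GFP. Chek1 had 42.62, 25.56 and 3.09 in fGTS2, and 53.28, 26.60 and 5.02 in GTML_SOX9-GFP. In each case S cells had the highest level and cells of neither class the lowest.

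Some members had another order. Fancd2 was highest in G2M cells, with 8.28 in S, 13.39 in G2M and 1.13 in neither in fGTS2, and 11.87, 15.52 and 2.35 in GTML_SOX9-GFP. Fanci and Chek2 were likewise higher in G2M than in S cells in both libraries. Counting G2M cells, 25 of 32 members were at least 2 times above cells of neither class in fGTS2, against 5.97% of genes, and 22 of 32 in GTML_SOX9-GFP, against 4.85%, and none was lower by 2 times, against 3.38% and 2.49% of genes. Fance was level across the classes, with 21.38 CPM in S, 19.78 in G2M and 18.83 in neither in fGTS2, and 31.23, 29.25 and 31.47 in GTML_SOX9-GFP. Fancf, Parp1 and Atr also stayed under 2 times in S and in G2M cells of both libraries, while Fancl was under 2 times in 3 of these 4 comparisons and 2.01 times higher in S cells of GTML_SOX9-GFP.

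Members with a higher ratio of S cells to cells of neither class tended to be those with larger falls under DOX in the bulk lines. Across the 32 genes, Spearman's rho between the S over neither ratio in fGTS2 and the DOX log2 fold change was -0.79 in preGTS1 and -0.77 in GTML3. With the ratio in GTML_SOX9-GFP it was -0.84 and -0.83. Genes are not independent replicates, the ratios of both libraries share the score genes, and the values are given as a description only. Several members departed from this order. Parp1, Atr and Fancl changed by -1.87, -1.79 and -1.62 in preGTS1 with ratios of 1.42, 1.64 and 1.41 in fGTS2. Atm and Pms2 changed by -1.87 and -1.39 in preGTS1 with ratios of 1.91 and 1.81 in GTML_SOX9-GFP.

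**Figure D3:**
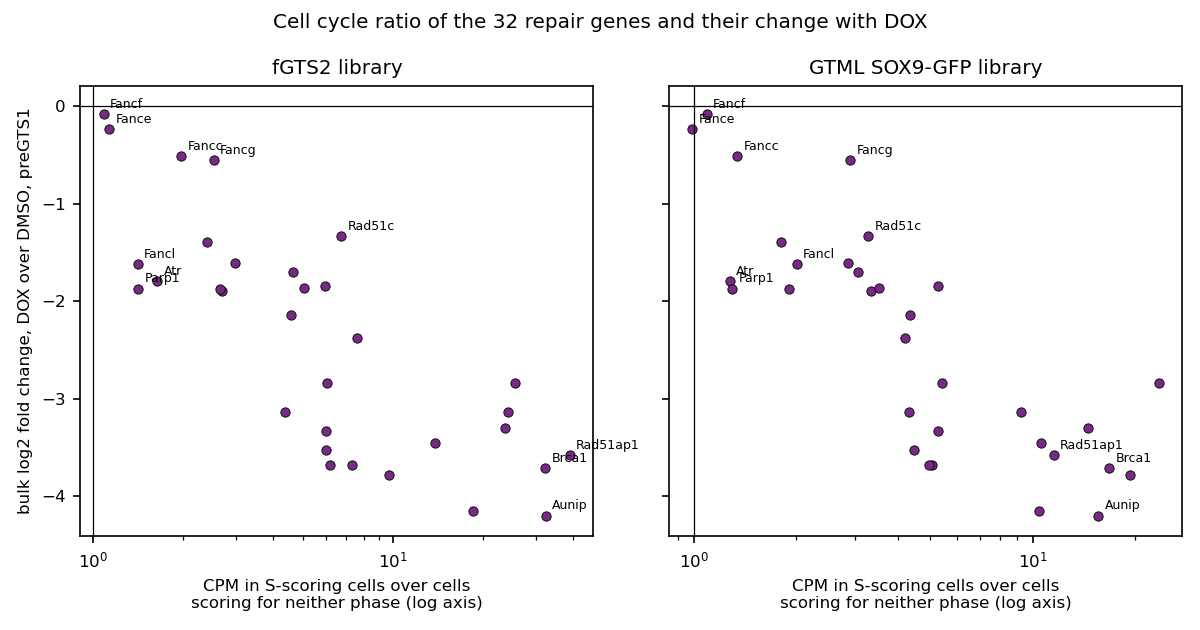
For each of the 32 genes, the ratio of UMI-based CPM in S-scoring cells over cells of neither class (horizontal, log axis) against the RNA log2 fold change DOX over DMSO in preGTS1 (vertical), with fGTS2 on the left and GTML_SOX9-GFP on the right. Rad51ap1 and Brca1, at ratios of 39 and 32.3 in fGTS2, lie low on the vertical axis, and Fance and Fancf lie near a ratio of 1 and a change of 0.

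Between the libraries, 26 of 32 members had lower CPM in fGTS2 than in GTML_SOX9-GFP, with a median ratio of 0.673, where the median over 12684 genes was 0.835. By at least 1.5 times, 16 were lower in fGTS2, against 32% of genes, and 1, Xrcc3, was higher, against 13.3%. Rad51c had 3.20 CPM in fGTS2 (exact Poisson interval 2.86 to 3.56, which covers counting error only) and 8.42 in GTML_SOX9-GFP (7.85 to 9.02). Palb2 had 3.08 (2.75 to 3.44) and 7.07 (6.54 to 7.62), and Xrcc3, of the same pathway, had 3.15 (2.81 to 3.51) and 1.98 (1.71 to 2.29). Cells of neither class made up 44.2% of fGTS2 and 27.7% of GTML_SOX9-GFP, and their part in the lower levels was not tested. The libraries share 6 cell barcodes. Levels in cells with at least 1 Sox9 UMI were close to those in cells with none: the median ratio over the 32 was 0.94 in fGTS2 (0.64 to 1.12; 2969 and 1529 cells) and 1.02 in GTML_SOX9-GFP (0.75 to 1.37; 607 and 4038 cells), with no class of cells known to lack Sox9 against which to measure background.

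At most members' starts, accessibility under DOX stayed within 1.5 times of its DMSO level. Regions within 1 kb of an annotated start were found for 28 of the 32 in the table of lines and GTS sources (30 regions; none for Rad54l, Fancf, Fancd2 and Pms2). The 2 ATAC libraries of each condition differed by more than counting noise, with a chi-square per degree of freedom of 1.88 to 2.05, where counting alone gives about 1. They were merged and count as 1 sample, with no test. Under DOX, 5 regions were lower and 1 higher by at least 1.5 times in preGTS1, against 12.5% and 11% of all promoter regions, and 2 were lower and 1 higher in GTML3, against 13.6% and 13.2%. These shares are near the background for a set of 30. The median log2 ratio was -0.12 in preGTS1 and -0.08 in GTML3.

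Chek1 and Bard1 had the clearest loss of accessibility. The region over the start of Chek1 (mm9, chr9:36533593-36534696) had 26.88 CPM in preGTS1 under DOX and 56.41 under DMSO, with log2 ratios of -1.02 and -1.09 in the separate libraries, and 52.90 CPM in GTML3 under DOX and 81.32 under DMSO (-0.82 and -0.38). That of Bard1 (chr1:71148806-71150082) had 75.40 CPM in preGTS1 under DOX and 138.28 under DMSO (-0.89 and -0.86), and 145.33 CPM in GTML3 under DOX and 207.97 under DMSO (-0.44 and -0.61). Rad54b (-0.63) and Atr (-0.60) were the other well-covered regions past 1.5 times in preGTS1. A second region near Fanci held few reads (0.32 to 4.22 CPM over the conditions) and accounts for 1 call in each line.

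Brca1 was the exception in preGTS1. Its region (chr11:101413087-101414579) had 103.72 CPM under DOX and 55.31 under DMSO, a log2 ratio of 0.91 (0.71 and 1.11 in the separate libraries), while its RNA changed by -3.71. The middle of this region of 1493 bases lies 134 bases from the start of Nbr1 and 564 bases from that of Brca1. The region covers both starts, so its reads may belong to either gene. Regions of Palb2, Xrcc3, Rad51ap1, Brip1, Atm and Chek2 also lie within 1 kb of another gene's start. In GTML3 the same region had 43.99 CPM under DOX and 45.05 under DMSO. Fancg had 7.24 CPM in GTML3 under DOX and 15.21 under DMSO, with separate ratios of -0.41 and -2.21 that differ widely, and Fance had 56.25 CPM in preGTS1 under DOX and 38.60 under DMSO (0.35 and 0.74).

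**Figure D4:**
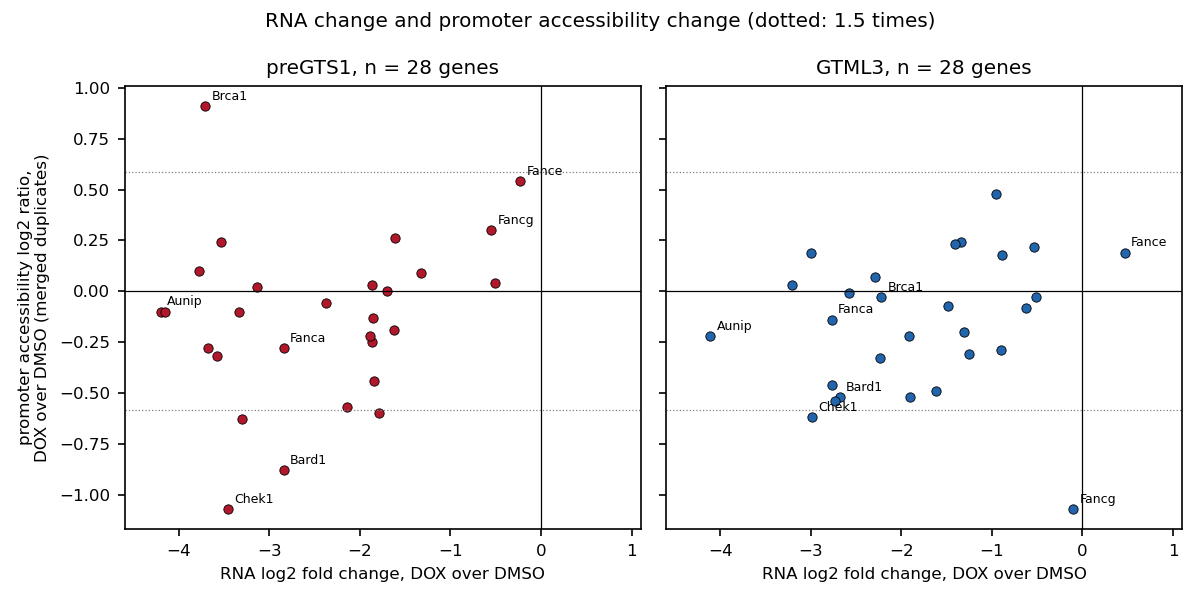
RNA log2 fold change (horizontal) against promoter accessibility log2 ratio (vertical), both DOX over DMSO, for 28 genes in preGTS1 (left) and GTML3 (right); dotted lines mark 1.5 times, and 1 region per gene is shown. Most genes lie far left of 0 on the RNA axis and within the dotted lines, with Chek1 and Bard1 below and Brca1 above them in preGTS1.

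Between the lines under DMSO, 7 member regions were lower in preGTS1 and 1 higher by at least 1.5 times, against 28.8% and 17.6% of promoter regions, where the median over all promoter regions was -0.24. The region at the start of Fancb (chrX:161418059-161418952), shared with Mospd2, had 85.93 CPM in preGTS1 and 268.81 in GTML3 (log2 ratio -1.65), and Fancb RNA was lower in preGTS1 by 1.68. Fancc (-1.15) and Msh6 (-0.95) were lower in both accessibility and RNA in preGTS1, whereas Fancl was lower in accessibility (-0.91) and higher in RNA (0.48). Of the other lower regions, that of Rad51ap1 (-0.62) went with higher RNA (0.61). Those of Atm (-0.65) and Bard1 (-0.59) went with no called difference in RNA. With scaling to the median promoter region, 4 member regions were lower and 3 higher. The sources labelled GTS1 and GTS2 were set against the same GTML3 DMSO libraries. In GTS1, 8 regions were higher and 7 lower, against 28.8% and 29.7%, and in GTS2, 8 were higher and 4 lower, against 28.6% and 23%. Chek1 was lower in both (-1.19 and -1.18), as was Fancb (-2.0 and -1.20), and Fanca was higher in both (58.21 CPM in GTS1 and 39.39 in GTS2, against 17.84). Aunip had 45.87 CPM in GTS1 and 11.96 in GTS2, against 11.70. The region counted as higher in preGTS1 was the second one near Fanci, with 3.51 CPM against 0.59 in GTML3. That sparse region was also counted as higher in GTS1 and in GTS2, as were the regions near Rad51b. The middle of the Rad51b region at chr12:80396888-80397803 lies 76 bases from the start of Zfyve26 and 992 bases from that of Rad51b. In the GFP fraction no region of 29 genes differed from nonGFP by 1.5 times, against 2.56% of promoter regions higher and 1.11% lower, and the log2 ratios lay between -0.23 and 0.12.

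In tumors, 31 of the 32 genes had a lower mean in GTS than in GTML, but none passed the threshold. With each tumor centred on its median, Fancl (0.02) and Fancm (0.08) were also above 0. The median log2 difference was -0.83, where the median over all genes was -0.075. By limma with the column number as a batch term, 0.00637% of 15708 genes were lower and 0.0509% higher at an adjusted p of 0.05, so few genes of any kind were called. At an unadjusted p under 0.05, 19 of the 32 were lower and none higher, while 19.5% of all genes passed in either direction. Without the batch term, which gives errors that are too small since the authors had removed that mean difference, 3 members were lower, against 1.96% of genes, and none higher, against 3.92%.

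Chek2, Rad54l and Bard1 came closest. Chek2 had log2 CPM of 3.67 (lowest), 4.44 (median) and 5.33 (highest) in GTS tumors, against 5.01, 5.55 and 6.30 in GTML tumors. Rad54l had 4.69, 5.44 and 6.12 in GTS tumors, against 6.01, 6.44 and 7.02 in GTML tumors, and Bard1 4.22, 5.22 and 6.24, against 5.99, 6.31 and 6.74. For each of the 3 genes, 5 of 6 GTS tumors lay below all 8 GTML tumors. The log2 differences were -1.16 ± 0.30 for Chek2, -1.11 ± 0.24 for Rad54l and -1.07 ± 0.28 for Bard1 (SE, limma, Benjamini-Hochberg adjusted p = 0.0896, 0.0669 and 0.0896). Without the batch term the adjusted p was 0.0251, 0.0153 and 0.0254.

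The other members had higher adjusted p-values. Brca1 had 5.60, 7.02 and 7.85 log2 CPM in GTS tumors (lowest, median and highest), against 7.49, 7.70 and 8.10 in GTML tumors (-0.81 ± 0.29, adjusted p = 0.168). Fancd2 had 4.82, 6.27 and 7.40 in GTS tumors, against 6.69, 7.05 and 7.38 (-0.85 ± 0.33, adjusted p = 0.193), and Chek1 3.85, 4.74 and 6.49, against 5.83, 6.07 and 6.51 (-1.0 ± 0.43, adjusted p = 0.228). For Brca1 and Fancd2, 5 GTS tumors lay below all GTML tumors and GTS tumor 2 lay in or above their upper range. For Chek1, 4 lay below all GTML tumors and 2, GTS tumors 2 and 3, lay near the highest GTML tumor. Rad51b ranged from -3.56 to 5.13 in GTS tumors and from 1.33 to 5.27 in GTML tumors, and its difference of -2.45 had a standard error of 1.21. Rad51c was the only member with a higher mean in GTS tumors (0.33 ± 0.26, limma, adjusted p = 0.485). Fancm (-0.02 ± 0.65) and Fancl (-0.07 ± 0.25) had the smallest differences of means. For Fancm, GTML tumor 5 had log2 CPM of 3.59, against medians of 7.58 in GTML tumors and 7.16 in GTS tumors. Leaving out 1 tumor at a time gave -0.39 to 0.21 for Fancm.

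**Figure D5:**
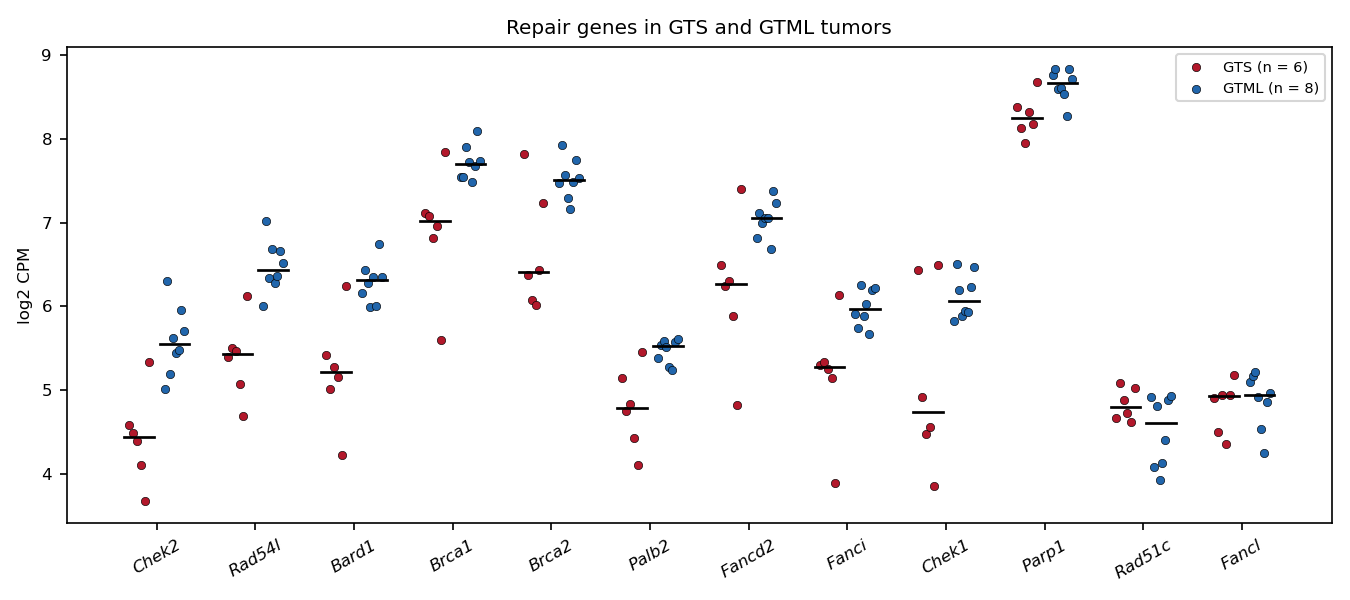
Log2 CPM of 12 of the genes in each tumor, with 6 GTS tumors left of 8 GTML tumors. Bars are medians. For Chek2, Rad54l and Bard1, 5 of 6 GTS tumors lie below every GTML tumor, and the remaining GTS tumor lies among them.

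GTS tumors 1 and 2 lay at opposite ends. Relative to the mean of GTML tumors, the median over the 32 genes was 0.11 in GTS tumor 2 and -1.97, -0.50, -0.78, -0.96 and -1.08 in GTS tumors 1, 3, 4, 5 and 6, against -0.16 to 0.15 in GTML tumors. The S-phase list moved with it: its median was 0.13 in GTS tumor 2 and -1.83, -0.50, -1.01, -1.11 and -0.90 in the others. Without GTS tumor 2, 12 members were lower in GTS tumors (limma, adjusted p under 0.05), against 1.46% of genes, and without GTS tumor 3, 2 were lower, against 0.656%. Without GTS tumor 1 none was called, the median over the 32 was -0.44, and 18 of the 32 moved nearer to 0 by over 1.5 times. Brca1 was then -0.31, Fancd2 -0.32, Brip1 -0.25, Chek1 -0.50 and Bard1 -0.68, while Chek2 (-0.86) and Rad54l (-0.84) moved less. Without GTS tumor 2 the median was -1.19. Within the tumors numbered 120 (2 GTS and 6 GTML) the difference of means was -1.07 for Chek2, -1.06 for Rad54l and -1.06 for Bard1, and within those with the other number (4 GTS and 2 GTML) it was -1.27, -1.16 and -1.08. The 2 GTS tumors numbered 120 were GTS tumors 1 and 2, so the differences within 120 average over both ends. In that order they had log2 CPM of 3.67 and 5.33 for Chek2, 4.69 and 6.12 for Rad54l, and 4.22 and 6.24 for Bard1.

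Of the pathways' other genes, 29 of 34 recombination genes, 11 of 15 Fanconi genes and 22 of 25 checkpoint genes tested had a lower mean in GTS tumors, with medians of -0.46, -0.21 and -0.48, and none passed the threshold.

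Summed markers of dividing and of other cells overlapped between GTS and GTML tumors for every list given here. All 41 S-phase genes had lower means in GTS tumors, with a median of -0.90 and a summed level of 1633 to 5255 CPM, against 4125 to 6717 CPM in GTML tumors; none passed the threshold. Medulloblastoma markers summed to 163 to 2116 CPM in GTS tumors and 846 to 3229 CPM in GTML tumors, with 12 of 15 lower in mean and no row for Atoh1 and Eomes. Astrocyte markers were higher in mean in 7 of 7 (median 1.98, none called), summing to 111 to 1238 CPM in GTS tumors and 66.6 to 483 CPM in GTML tumors. Oligodendrocyte markers were higher in 7 of 8, with sums of 124 to 875 and 66.7 to 402 CPM, and microglia and macrophage markers in 10 of 13, with sums of 318 to 784 and 167 to 603 CPM. Sums of neuron markers (1143 to 2544 CPM in GTS tumors and 978 to 2298 in GTML tumors), endothelial markers (128 to 381 and 143 to 260) and mural cell and fibroblast markers (120 to 650 and 91.2 to 1315) complete these lists. Mycn itself had a log2 difference of -0.63 ± 0.25 (adjusted p = 0.205). Their part in the lower levels of the repair genes was not tested.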

How the data were processed

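Per the labels' protocols, Trizol and RNeasy gave the RNA, and bulk libraries were sequenced on Ion Torrent. Tools listed in the submitters' processing notes, with no roles, are limma, edgeR, MACS2, Seurat 3.0, Cell Ranger 3.3.0, Subread 1.5.2, Bowtie2 2.2 and STAR 2.4.0, with the builds mm9 and mm10. For bulk RNA the authors deposited log2 CPM per gene symbol. For ATAC-seq they deposited CPM per region, on coordinates that fit mm9. For single cells the deposited values are UMI counts. Strand use and handling of reads shared between genes are not given in the sources used here. Sample titles gave the groups, since each treated-line sample's free-text description names the next column instead.

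Log2 CPM was tested as deposited with limma 3.58.1 (trend and robust) in R 4.3.3, Benjamini-Hochberg over all genes, threshold 0.05. The filter, a CPM of 1 or more in 3 line samples or 6 tumors, kept 15926 of 15926 and 15708 of 16078 genes. The 4 line groups shared 1 fit. Tumor columns carry 1 of 2 numbers, 120 or another, read as a batch, whose mean difference had been removed with tumor kind kept (largest coefficient 1.8e-14); tumor depth is unknown. In the lines, 100% of values gave whole reads within 0.1, and edgeR 4.0.16 and DESeq2 1.42.0 ran on those reads as alternatives. The same steps gave ATAC libraries 0.827 to 7.773 M reads in regions for lines and GTS sources and 8.964 to 14.954 M for GFP and nonGFP. Bulk and ATAC reads carry no molecular identifiers and can be PCR copies, so depth covers counting error only. Doublets were not called, all 4498 fGTS2 and 4645 GTML_SOX9-GFP cells were kept, and cell cycle scores used scanpy 1.11.5 in Python 3.11.15. The fit was tested on simulated data.

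The members and lists were chosen with earlier results of these data known. Every member may be named; of each other list, the 3 largest changes past the threshold without overlap of the groups, or all if 5 or fewer passed. Rev3l, Ube2t and Usp1 follow that rule in at least 1 line. Replicate numbers of the lines were checked for pairing and did not pair the samples. Alternatives were other scalings, filters, tools, a replicate block and leaving out each sample.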

Additional observations from a re-analysis of the deposited data

Results flagged for a closer look

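The DOX response differed between preGTS1 and GTML3 for 20 genes by the interaction term (limma, Benjamini-Hochberg adjusted p under 0.05). As preGTS1 minus GTML3 on the log2 scale, the recombination genes among them were Brca1 (-1.49), Rad54b (-1.39), Blm (-1.10), Palb2 (-0.90), Rad51ap1 (-0.85), Rad51c (-0.81), Rad54l (-0.63), Rbbp8 (-0.58) and Xrcc2 (-0.52). The Fanconi genes were Fancb (-1.16), Fanci (-1.10), Brip1 (-1.02), Fancl (-1.0), Fance (-0.70), Fancm (-0.66), Fancd2 (-0.65) and Fancg (-0.46). Atm (-0.98), Atr (-0.89) and Parp1 (-0.62) complete the 20. Fance stands out among them because its DOX change has opposite signs in the lines, -0.23 in preGTS1 and 0.47 in GTML3. The preGTS1 value was not called (limma, adjusted p = 0.166). The GTML3 call was lost without DMSO replicate 2 (0.34, limma, adjusted p = 0.0556).

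In 7 of 64 groups of tumors a member had 1 tumor far from the rest by Dixon's test, which chance gives in about 1 in 20 groups. GTS tumor 1 was lowest for Fance (log2 CPM 2.15) and Msh6 (3.83). GTML tumor 8 was highest for Xrcc2 (6.77), Rad51ap1 (6.59) and Pms2 (7.24), and GTML tumor 5 was lowest for Xrcc3 (0.98) and Fancm (3.59). The test looks for 1 tumor and can miss a pair. GTML tumors 3 and 4 lay above all other GTML tumors for Rbbp8 (7.34 and 7.61), Fance (7.39 and 6.98) and Msh6 (8.98 and 8.94). The GTML medians of these genes were 4.80, 4.15 and 6.12, and the GTS medians 4.24, 3.74 and 5.34. Their lower means in GTS tumors (-1.27, -1.12 and -1.44) include this pair.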

How the results depend on the processing

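Of 2940 values recomputed under the alternatives, 2752 kept their direction and side of the threshold, 71 lost the threshold, 42 gained it, 57 turned sign and 18 counts or medians moved; where a value changed, the cause was not tested. Leaving out each sample left 30 to 31 members lower under DOX in preGTS1 and 29 to 30 in GTML3, and 0 to 1 higher in GTML3. It gave 18 to 23 lower responses, 13 to 15 higher and 5 lower members under DMSO, 1 to 3 higher and 18 to 21 lower under DOX, and 0 to 12 lower in tumors. Tumors had 3 lower members with no batch term. Higher members under DMSO numbered 9 when samples were centred on their median. Higher members under DOX numbered 1 with that centring, in the groups' own fit and by DESeq2.

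Same-numbered line samples did not deviate together (correlations -0.154 to 0.077), so the replicate block is given here only. With it, higher members under DOX numbered 1, Xrcc2's response lost its call (adjusted p = 0.0658), and the counts of lower members were 30 in both DOX comparisons and 19 for the response.

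Values near 0 turned sign when samples were left out. For preGTS1 minus GTML3 under DMSO these were Atm (-0.08 to 0.08, and 0.00 by edgeR), Atr (-0.13 to 0.04), Bard1 (-0.10 to 0.09), Rad54b (-0.06 to 0.05) and Pms2 (-0.01 to 0.05, -0.09 centred on the median, -0.05 by DESeq2). Under DOX they were Chek2 (-0.07 to 0.07, -0.08 centred, -0.01 by DESeq2) and Fancd2 (-0.04 to 0.19, -0.05 centred). DOX changes that turned were Fancg in GTML3 (-0.20 to 0.00) and Fancf in preGTS1 (-0.19 to 0.06). Responses that turned were Aunip (-0.41 to 0.21), Fanca (-0.16 to 0.01) and Fancc (-0.09 to 0.04, 0.01 centred, 0.02 with log2(CPM + 1), 0.04 by DESeq2). In tumors, Fancl (-0.22 to 0.03, 0.02 centred), Fancm (-0.39 to 0.21, 0.08 centred) and Pms2 (-0.33 to 0.06) turned, and within number 120 the differences were 0.07 for Atr, 0.27 for Fancl, 0.63 for Fancm and 0.28 for Pms2.

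ATAC medians moved with scaling to the median promoter region to -0.14 for the lines under DMSO, -0.11 for GTS2 and -0.05 for GFP. With either library left out they ranged from -0.43 to -0.19 for the lines under DMSO, -0.21 to -0.09 for GTS1, 0.07 to 0.12 for GTS2 and -0.09 to -0.07 for GFP. Within 500 bases GTS2 was -0.09. With a class boundary at 0.1, median ratios over cells of neither class were 7.21 for S and 5.16 for G2M in fGTS2, and 5.44 and 4.92 in GTML_SOX9-GFP. Tumor depth being unknown, no counting limit can be set on tumor values, and the regions of Fancg, Fanci and Aunip rest on few ATAC reads.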
